A study of Arabidopsis thaliana with 11 samples.

Results

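The 43 genes described here encode the nuclear light-harvesting antenna proteins and the nuclear subunits of photosystems I and II of Arabidopsis thaliana. They were chosen by name, from the antenna genes LHCA1 to LHCA6 and LHCB1 to LHCB7 and the nuclear PSA and PSB subunit genes. All 43 had a row among the 33602 genes of the deposited table. The rule uses names and no expression value, but it was set with earlier results of these data known. By role there were 4 photosystem I antenna genes, 9 major and 4 minor photosystem II antenna genes, and 4 further antenna genes. The 4 further ones, LHCA5, LHCA6, LHCB4.3 and LHCB7, are called rare below, which is a group name and not a level measured here. The rest were 12 photosystem I subunit genes, 6 genes of the oxygen-evolving complex and 4 other photosystem II genes.

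Protoplasts from the aerial parts of Columbia seedlings were sorted on the fluorescence of a marker line, and their RNA was sequenced. The 4 stomatal lineage sorts followed the path from stem-cell-like precursor to guard cell, the paired cells that open and close the leaf pore. SSY carried SPCHp::SPCH-YFP, a fusion protein under its own promoter that marks the early precursors (3 libraries). MG carried MUTEp::nucGFP, a nuclear reporter that marks middle precursors (2 libraries). FGF carried FAMAp::GFP-FAMA, a fusion that marks late precursors (2 libraries). E1728G carried the enhancer trap E1728::GFP, which marks mature stomata (2 libraries). ML1Y carried ML1p::YFP-RCI2A, a membrane reporter for the whole epidermis, which contains the stomatal lineage as well as pavement cells (2 libraries). All plants were 10 days old and had grown in 16 h of light and 8 h of dark at 25 °C, and all tissue spent 2 h in protoplasting solution. Each library was made from 4000 to 20000 sorted cells and about 10 ng of total RNA after capture on oligo-dT beads. The labels number the replicates of a marker line without saying whether they came from separate plants, so the p-values below measure the spread between libraries, which may be technical.

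Light-harvesting antenna proteins bind chlorophyll and pass absorbed light energy to the photosystem cores, where it drives electron transport. Photosystem II oxidises water and photosystem I reduces ferredoxin. The antenna proteins and most small subunits are encoded in the nucleus, often by several near-identical genes, and are imported into the chloroplast, whereas the reaction centre proteins are encoded in the chloroplast genome. In leaves these transcripts are best known from the mesophyll, the green inner tissue. Pavement cells of the Arabidopsis epidermis have small, sparsely green plastids, and guard cells have a few green chloroplasts of their own.

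Among the major photosystem II antenna genes, near-identical copies limit what a gene-level value means, so the first 54 coding bases of the 5 LHCB1 genes are set side by side. The sequences are those of RefSeq on the TAIR10.1 assembly, and capitals mark bases that differ from LHCB1.1.
LHCB1.1: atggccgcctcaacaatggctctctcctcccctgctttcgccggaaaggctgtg
LHCB1.2: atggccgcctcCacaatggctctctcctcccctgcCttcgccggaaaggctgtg
LHCB1.3: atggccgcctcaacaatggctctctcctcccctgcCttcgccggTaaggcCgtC
LHCB1.4: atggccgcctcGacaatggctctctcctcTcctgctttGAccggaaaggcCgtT
LHCB1.5: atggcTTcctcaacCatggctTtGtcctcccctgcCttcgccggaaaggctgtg
LHCB1.2 differed from LHCB1.1 at 2 of these bases, LHCB1.3 at 4, and LHCB1.4 and LHCB1.5 at 6 each. Over the whole coding sequence, LHCB1.1, LHCB1.2 and LHCB1.3 were 95.6% to 96.4% identical to each other, LHCB1.4 and LHCB1.5 were 92.5% identical, and LHCB2.1 and LHCB2.2 were 91.6% identical. LHCA1 and LHCA4, whose products pair in the photosystem I antenna, were 61.5% identical. No source used here states how the authors' counting treated reads that fit several copies. Single LHCB1 and LHCB2 values are uncertain and the summed value of each family is given with them.

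Promoters are shown for 4 members on which the results below turn. LHCA1 and LHCA4 changed places as the higher of the pair between sorts, LHCB1.4 had the largest difference of all members, and LHCB7 did not follow the others. Each run is the 250 bases before the annotated gene start on TAIR10.1, read in the direction of the gene. Capitals mark CACGTG (the G-box), GATAAG (the I-box), CCAATC or TATAAA on either strand.
LHCA1, chr3:20341177-20341426, minus strand: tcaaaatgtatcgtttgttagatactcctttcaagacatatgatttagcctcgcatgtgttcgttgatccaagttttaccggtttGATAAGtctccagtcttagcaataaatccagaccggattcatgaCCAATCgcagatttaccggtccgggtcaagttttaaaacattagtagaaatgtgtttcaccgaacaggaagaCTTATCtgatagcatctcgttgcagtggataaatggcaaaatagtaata
LHCA4, chr3:17495034-17495283, minus strand: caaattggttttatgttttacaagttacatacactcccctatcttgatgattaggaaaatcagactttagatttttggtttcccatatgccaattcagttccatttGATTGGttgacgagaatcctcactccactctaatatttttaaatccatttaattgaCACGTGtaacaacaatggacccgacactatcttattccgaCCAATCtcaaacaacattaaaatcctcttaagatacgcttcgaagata
LHCB1.4, chr2:14524357-14524606, plus strand: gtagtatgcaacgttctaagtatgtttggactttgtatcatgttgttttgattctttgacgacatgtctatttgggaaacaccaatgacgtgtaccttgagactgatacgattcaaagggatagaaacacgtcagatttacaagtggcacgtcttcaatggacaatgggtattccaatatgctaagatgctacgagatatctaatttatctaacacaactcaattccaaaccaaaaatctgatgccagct
LHCB7, chr1:28728748-28728997, plus strand: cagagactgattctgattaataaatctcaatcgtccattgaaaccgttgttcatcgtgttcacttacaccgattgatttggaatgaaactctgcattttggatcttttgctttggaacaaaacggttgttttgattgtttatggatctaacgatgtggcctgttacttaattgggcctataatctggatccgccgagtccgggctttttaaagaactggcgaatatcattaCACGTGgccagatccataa
In these windows LHCA1 held 2 I-boxes and 1 CCAATC, LHCA4 held 1 G-box and 2 CCAATC, LHCB7 held 1 G-box, and LHCB1.4 held none of these motifs. The genes lie on chromosome 3 from 20339504 to 20341176 (LHCA1), on chromosome 3 from 17493343 to 17495033 (LHCA4), on chromosome 2 from 14524607 to 14525918 (LHCB1.4) and on chromosome 1 from 28728998 to 28730851 (LHCB7).

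Values were deposited on a log scale, taken here to have base 2, and raising 2 to each value gave library sums between 17236592 and 25175463. Read depth per library is unknown, so no counting interval can be given. In 4 of the 11 libraries the library with the highest rank correlation belonged to another marker line. SPCH, the factor that starts the lineage, was not higher in SSY than in ML1Y (5.46, 6.12 and 5.15 in SSY, 6.36 and 5.92 in ML1Y), so it does not check the SSY label. MUTE, which ends the precursor divisions, stood at 7.65 and 9.86 in MG, and FAMA, which acts at the last step, at 14.03 and 14.90 in FGF. The SSY libraries had a narrower spread of values over genes (interquartile range 2.45 to 2.55) than the other 8 libraries (2.83 to 3.51).

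Antenna and photosystem genes were far lower in every stomatal lineage sort than in ML1Y, the sort on the whole-epidermis reporter. The summed mesophyll markers, given further below, were also higher in ML1Y than in the lineage. Their part in this difference was not tested. In the 9 lineage libraries the 43 genes together took 0.0719% to 0.179% of the summed linear values, against 1.89% and 2.75% in the ML1Y libraries. By stage the shares were 0.0719% to 0.0993% in SSY, 0.116% and 0.145% in MG, 0.108% and 0.132% in FGF and 0.129% and 0.179% in E1728G. All 9 lineage libraries lay below both ML1Y libraries. The median member still stood above 77.5% to 84.8% of the genes tested in the lineage libraries, against 98.5% and 98.7% in ML1Y. These are pooled cells, in which fewer cells of a type and less RNA per cell cannot be told apart.

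**Figure D1:**
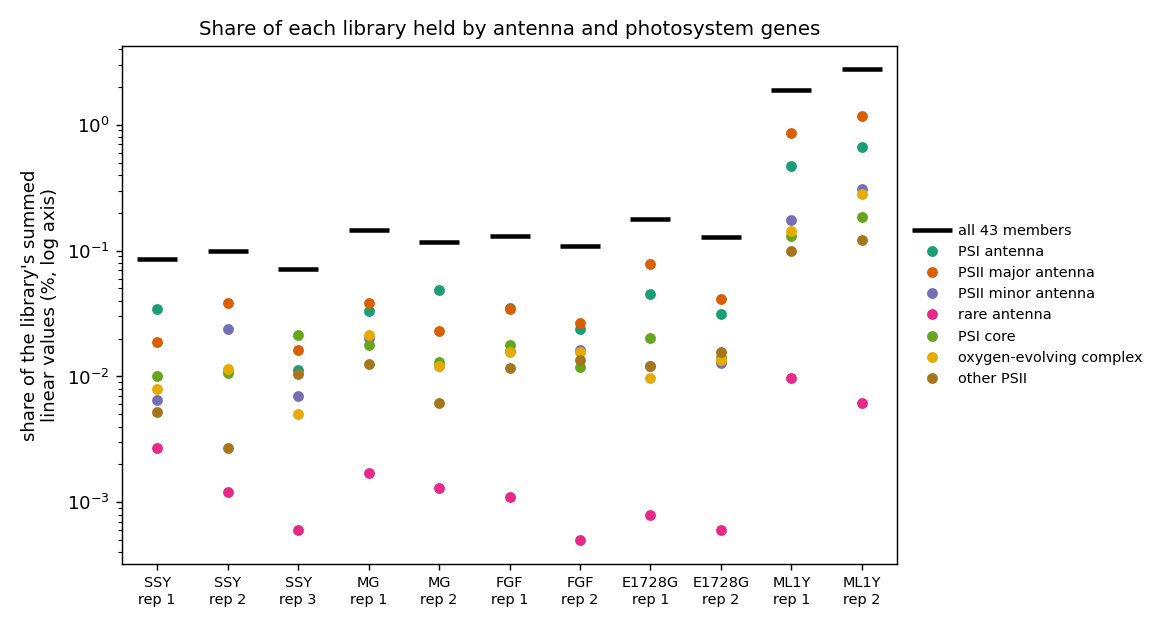
Share of each library's summed linear values (percent, log axis) taken by all 43 genes (black dashes) and by each role (coloured points), for the SSY, MG, FGF, E1728G and ML1Y libraries from left to right. The 9 lineage libraries lie between 0.0719% and 0.179%, and the ML1Y libraries at 1.89% and 2.75%.

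All 43 members passed the filter for testing, which asked for a value of at least 3.32 (2 raised to the value of at least 10) in at least 2 libraries. The lowest member value in any library was 4.06, for LHCA5 in SSY replicate 2, so no member passed through ML1Y alone. In 38 of the 43 members all 9 lineage libraries lay below both ML1Y libraries, while 6.46% of the 29850 genes tested had that pattern. The other 5 were PSAH-2 and PSBP-1, each high in SSY replicate 2, PSBX, high in FGF replicate 2, and the rare antenna genes LHCB4.3 and LHCB7. ML1Y had the highest group mean for 42 of the 43, and SSY for LHCB7. SSY had the lowest group mean for 29 members, FGF for 8, E1728G for 4 and MG for 2. Shares over all genes were not computed for these counts of highest and lowest means. The SSY libraries also had the narrower spread of values given above.

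**Figure D2:**
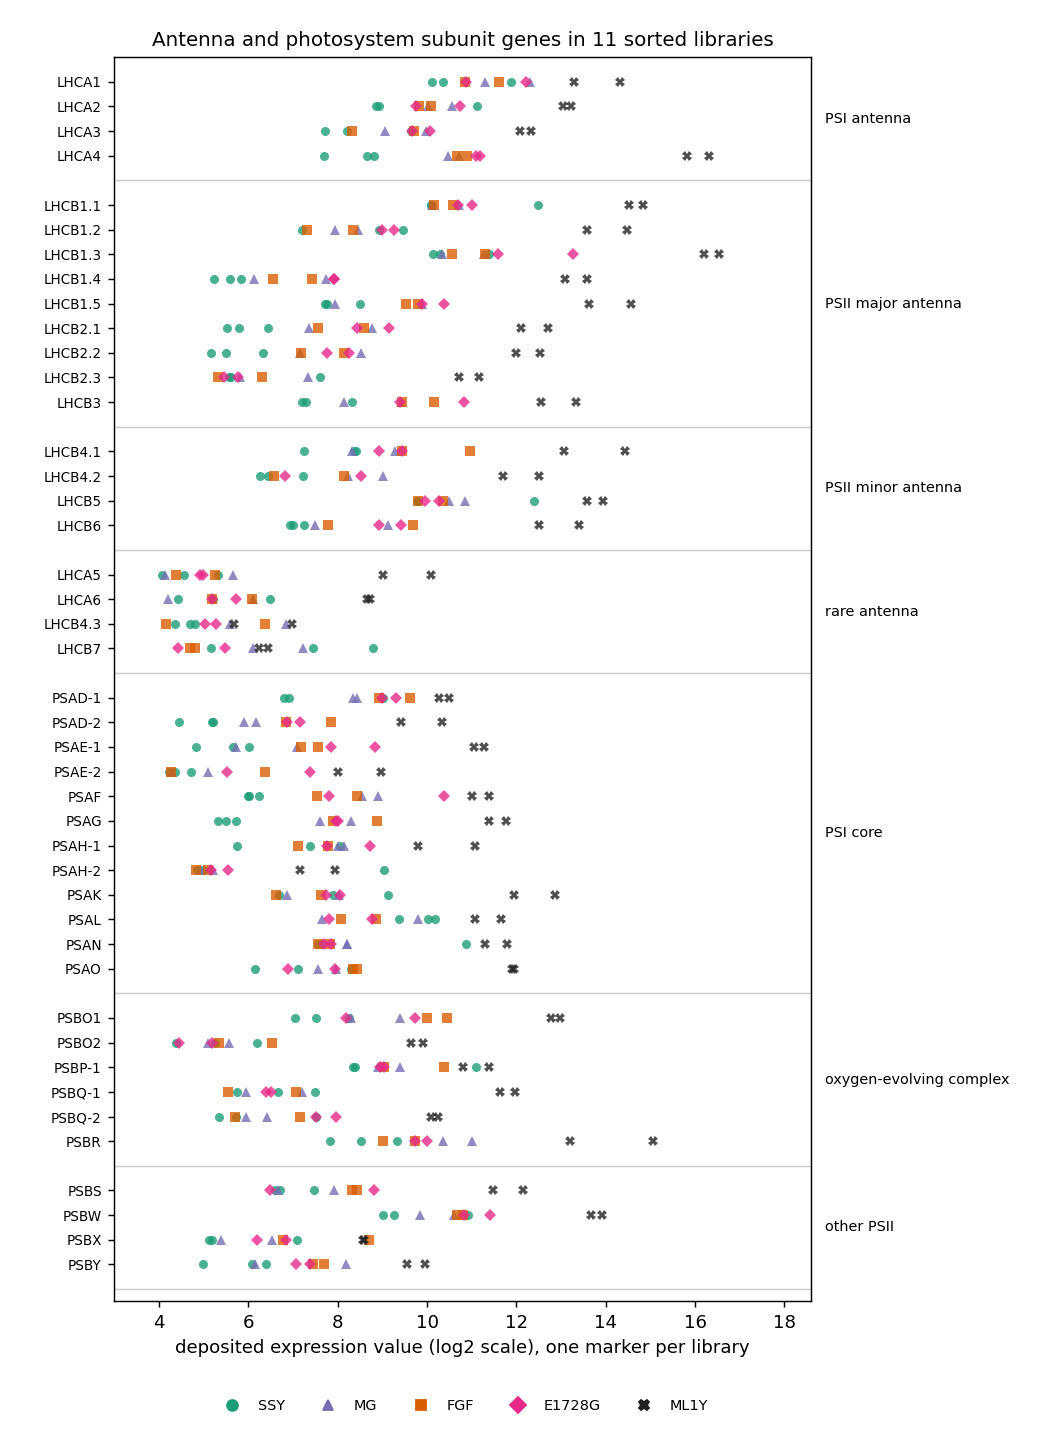
Deposited values (log2 scale) of each of the 43 genes, grouped by role, with 1 marker per library and 1 colour per marker line. The ML1Y markers lie to the right of all lineage markers in 38 of the 43 genes, and LHCB7 and LHCB4.3 are the clearest exceptions.

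In the test of the mean of the 4 stages against ML1Y, 35 of the 43 members fell and none rose (limma, adjusted p under 0.05), against 3.69% of all genes tested that fell and 0.0804% that rose. The median difference of the members was -3.97 on the log2 scale, and that of all genes tested was 0.10. By role, 9 of 9 major photosystem II antenna genes fell, 4 of 4 minor ones, 3 of 4 photosystem I antenna genes, 2 of 4 rare antenna genes, 9 of 12 photosystem I subunits, 5 of 6 genes of the oxygen-evolving complex and 3 of 4 other photosystem II genes. Leaving out the rare genes, the antenna had a median difference of -4.70 (17 genes, 16 of which fell) and the subunits -3.49 (22 genes, 17 of which fell). Among the 100 genes with the lowest differences of all 29850 were 20 members, 11 of them from these antenna genes and 8 from the subunits.

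The count depended on the ML1Y libraries. The share of all genes that passed in the fits of this paragraph is not given here. A loss of calls particular to the members therefore cannot be told from a loss over all genes. With ML1Y replicate 1 left out 23 members fell in the mean of the stages, and with ML1Y replicate 2 left out 15 fell, with member medians of -4.17 and -3.62. The 15 members that passed in each of the 11 fits with 1 library left out were LHCA4, LHCB1.2 to LHCB1.5, LHCB2.1 to LHCB2.3, LHCA5, PSAD-2, PSAE-1, PSAG, PSAO, PSBO2 and PSBQ-1. The other 20 lost the call without ML1Y replicate 2, and of those named below PSAH-1 lost it also without MG replicate 1 or 2, FGF replicate 1 or E1728G replicate 2. Without the 3 SSY libraries, whose value distribution stood apart (a fit added after the values were seen), 37 members fell in the mean of the other 3 stages, with a median difference of -3.54.

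**Figure D3:**
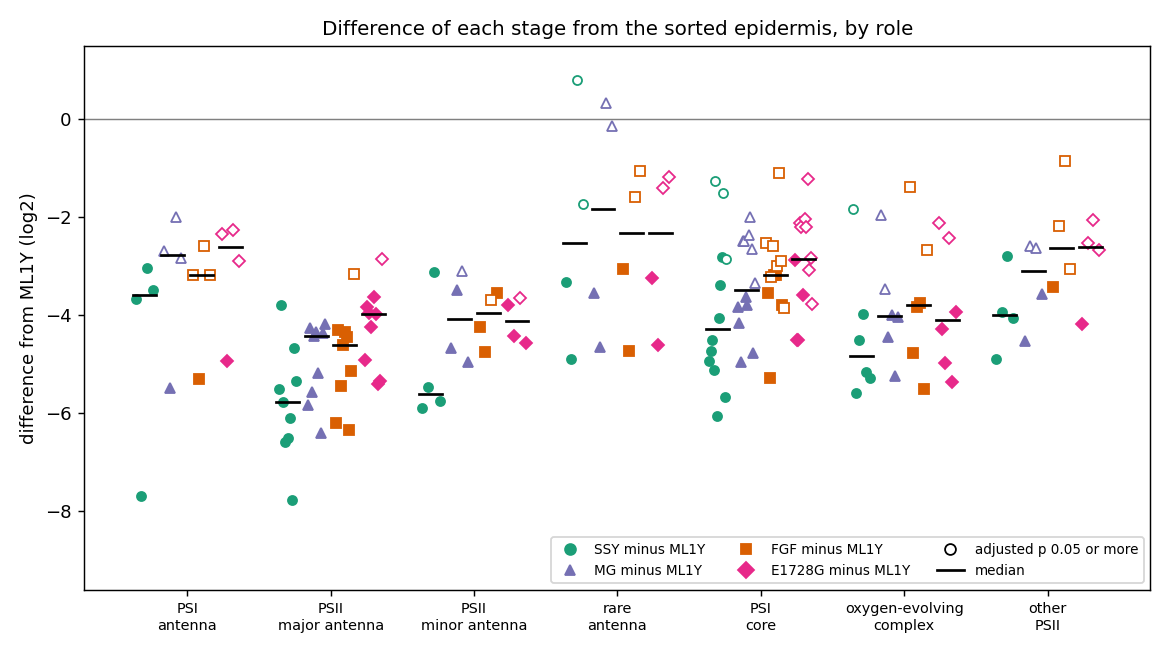
Difference from ML1Y (log2) of each member in SSY, MG, FGF and E1728G, with the members grouped by role along the horizontal axis and 1 marker per member and stage. Filled markers passed the test, and black bars are medians. The lowest marker is LHCB1.4 in SSY, and LHCB7 in SSY and MG gives the only markers above 0.

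In the photosystem I antenna, LHCA1 (AT3G54890) and LHCA4 (AT3G47470) form a dimer of the belt of antenna proteins, and LHCA2 (AT3G61470) and LHCA3 (AT1G61520) form another. Values of LHCA4 were 8.82, 7.70 and 8.65 in the SSY libraries, 10.71 and 10.48 in MG, 10.89 and 10.66 in FGF and 11.10 and 11.18 in E1728G, against 15.82 and 16.32 in ML1Y. They were lowest in SSY and highest in ML1Y with no overlap between the lineage and ML1Y. Relative to ML1Y, LHCA4 fell by 5.85 ± 0.59 (SE; adjusted p = 9.41e-05) in the mean of the stages, 57.5-fold, rank 8 from the lowest of all genes tested. Its partner LHCA1 had 11.88, 10.35 and 10.10 in the SSY libraries, 11.29 and 12.32 in MG, 11.61 and 10.86 in FGF and 12.21 and 10.88 in E1728G, against 13.29 and 14.33 in ML1Y. That difference was -2.47 ± 0.69 (SE; adjusted p = 0.0652), which missed the threshold, although every lineage library lay below both ML1Y libraries.

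LHCA2 values were 11.12, 8.87 and 8.93 in the SSY libraries, 10.02 and 10.56 in MG, 10.10 and 9.82 in FGF and 10.73 and 9.76 in E1728G, against 13.03 and 13.22 in ML1Y. LHCA3 values were 7.72, 9.65 and 8.21 in the SSY libraries, 9.05 and 9.98 in MG, 9.71 and 8.33 in FGF and 9.67 and 10.06 in E1728G, against 12.08 and 12.32 in ML1Y. Both genes lay below ML1Y in all lineage libraries, with SSY replicate 1 the highest lineage library for LHCA2 and the lowest for LHCA3. The differences were -3.09 ± 0.69 (SE; adjusted p = 0.0187) for LHCA2 and -2.97 ± 0.67 (SE; adjusted p = 0.02) for LHCA3. All 4 genes fell in SSY against ML1Y, but LHCA4 alone passed the test in MG, FGF and E1728G.

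In the major photosystem II antenna, LHCB1 and LHCB2 proteins form the mobile trimers that collect most of the light for photosystem II, and LHCB3 (AT5G54270) joins the trimers bound more tightly to the core. The 5 LHCB1 genes summed on the linear scale gave 11.64, 13.19 and 11.43 in the SSY libraries, 12.46 and 11.54 in MG, 12.39 and 11.86 in FGF and 13.74 and 12.73 in E1728G, against 17.02 and 17.48 in ML1Y. The difference of the sum was -4.89 ± 0.62 (SE; adjusted p = 0.000391). The 3 LHCB2 genes summed gave 8.16, 7.11 and 7.75 in the SSY libraries, 8.50 and 9.91 in MG, 9.54 and 8.54 in FGF and 9.83 and 9.27 in E1728G, against 13.31 and 13.86 in ML1Y, with a difference of -4.71 ± 0.63 (SE; adjusted p = 0.000567). The highest lineage library was E1728G replicate 1 for LHCB1 and MG replicate 2 for LHCB2, and both stayed well below ML1Y.

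LHCB1.4 (AT2G34430, RefSeq symbol LHB1B1) had the largest difference of all members. Its values were 5.24, 5.60 and 5.84 in the SSY libraries, 7.73 and 6.12 in MG, 6.54 and 7.42 in FGF and 7.92 and 7.91 in E1728G, against 13.08 and 13.57 in ML1Y. The SSY libraries lay below all others, and the lineage stood far below ML1Y throughout. Its difference was -6.48 ± 0.56 (SE; adjusted p = 6.55e-05), 89.2-fold lower and rank 4 from the lowest of all genes tested. LHCB3 had the smallest difference of these 9 genes, -3.88 ± 0.66 (SE; adjusted p = 0.00298). For LHCB3 the values were 7.19, 7.30 and 8.32 in the SSY libraries, 9.42 and 8.14 in MG, 9.45 and 10.15 in FGF and 10.82 and 9.39 in E1728G, against 12.56 and 13.34 in ML1Y, so E1728G replicate 1 and FGF replicate 2 were the closest to ML1Y.

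Of the remaining LHCB1 genes, LHCB1.2 (AT1G29910) ranged over 7.20 to 9.47 in the lineage against 13.59 and 14.48 in ML1Y, LHCB1.3 (AT1G29930) over 10.14 to 13.27 against 16.21 and 16.54, LHCB1.5 (AT2G34420) over 7.72 to 10.37 against 13.63 and 14.56, and LHCB1.1 (AT1G29920) over 10.08 to 12.49 against 14.51 and 14.82. LHCB1.1 was raised in SSY replicate 2 (12.49) relative to the other SSY libraries. Of the LHCB2 genes, LHCB2.1 (AT2G05100) ranged over 5.51 to 9.14 against 12.11 and 12.70, LHCB2.2 (AT2G05070) over 5.17 to 8.52 against 11.99 and 12.52, and LHCB2.3 (AT3G27690) over 5.32 to 7.61 against 10.72 and 11.16. The differences of these 7 genes lay between -5.61 (LHCB1.2) and -4.04 (LHCB1.1).

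In the minor photosystem II antenna, the single proteins LHCB4, LHCB5 (AT4G10340) and LHCB6 (AT1G15820) link the trimers to the photosystem II core. LHCB4.1 (AT5G01530) had the largest difference of the group, -4.71 ± 0.67 (SE; adjusted p = 0.000883), with 7.23, 8.36 and 8.42 in the SSY libraries, 9.27 and 8.32 in MG, 9.44 and 10.97 in FGF and 8.93 and 9.44 in E1728G, against 13.07 and 14.43 in ML1Y. LHCB4.2 (AT3G08940) had 6.27, 7.22 and 6.43 in the SSY libraries, 9.02 and 8.24 in MG, 8.15 and 6.58 in FGF and 6.83 and 8.52 in E1728G, against 11.71 and 12.50 in ML1Y, and its difference was -4.53 ± 0.64 (SE; adjusted p = 0.000878). FGF replicate 2 was the highest lineage library for LHCB4.1 and the lowest outside SSY for LHCB4.2. LHCB5 had the smallest difference, -3.38 ± 0.72 (SE; adjusted p = 0.0137), with 9.78, 12.40 and 9.79 in the SSY libraries, 10.84 and 10.48 in MG, 10.35 and 9.80 in FGF and 10.27 and 9.96 in E1728G, against 13.58 and 13.94 in ML1Y. SSY replicate 2 stood 2.63 log2 units above the lowest SSY library in LHCB5. LHCB6 ranged over 6.93 to 9.69 in the lineage against 12.51 and 13.41 in ML1Y, a difference of -4.65 ± 0.66 (SE; adjusted p = 0.000883).

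Among the rare antenna genes, LHCA5 (AT1G45474) and LHCA6 (AT1G19150) proteins are present at low levels and join photosystem I to the chloroplast NDH complex, which works in cyclic electron flow. LHCA5 values were 4.57, 4.06 and 5.33 in the SSY libraries, 5.66 and 4.13 in MG, 5.25 and 4.39 in FGF and 4.91 and 4.98 in E1728G, against 10.09 and 9.0 in ML1Y. The lineage values were close together and near the lower end of all member values, and the difference was -4.72 ± 0.50 (SE; adjusted p = 0.000127). LHCA6 values were 5.20, 6.49 and 4.42 in the SSY libraries, 6.11 and 4.21 in MG, 6.08 and 5.19 in FGF and 5.72 and 5.19 in E1728G, against 8.65 and 8.73 in ML1Y, with a difference of -3.29 ± 0.57 (SE; adjusted p = 0.00364). Both passed the test in all 4 stages.

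The other 2 rare antenna genes did not pass it in any stage. LHCB4.3 (AT2G40100), a divergent LHCB4 gene, had 4.35, 4.69 and 4.79 in the SSY libraries, 6.84 and 5.58 in MG, 6.38 and 4.16 in FGF and 5.04 and 5.27 in E1728G, against 6.98 and 5.68 in ML1Y. The ML1Y libraries themselves were far apart, MG replicate 1 and FGF replicate 1 lay between them, and the difference was -1.02 ± 0.54 (SE; adjusted p = 0.495). LHCB7, an antenna relative that has no symbol in RefSeq (AT1G76570), had 8.80, 7.45 and 5.15 in the SSY libraries, 6.11 and 7.23 in MG, 4.69 and 4.81 in FGF and 5.48 and 4.41 in E1728G, against 6.23 and 6.44 in ML1Y. SSY replicates 1 and 2 and MG replicate 2 lay above both ML1Y libraries, and both FGF libraries and both E1728G libraries lay below them. Its difference from ML1Y was 0.80 ± 0.81 (SE; adjusted p = 0.619) in SSY, 0.33 ± 0.88 (SE; adjusted p = 0.996) in MG, -1.59 ± 0.88 (SE; adjusted p = 0.544) in FGF and -1.39 ± 0.88 (SE; adjusted p = 0.608) in E1728G. The positive value in SSY became -0.038 without SSY replicate 1, and that in MG became -0.23 without MG replicate 2.

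Among the photosystem I subunits, PSAD and PSAE form the stromal side on which ferredoxin docks, PSAF (AT1G31330) and PSAN (AT5G64040) serve plastocyanin on the lumenal side, PSAG (AT1G55670) and PSAK (AT1G30380) lie at the edges of the complex, and PSAH, PSAL (AT4G12800) and PSAO (AT1G08380) take part in docking the mobile antenna. PSAK had the largest difference, -4.81 ± 0.68 (SE; adjusted p = 0.000803), with 7.88, 6.69 and 9.12 in the SSY libraries, 8.04 and 6.87 in MG, 7.63 and 6.63 in FGF and 8.05 and 7.74 in E1728G, against 11.94 and 12.87 in ML1Y. All lineage values of PSAK lay below ML1Y, and SSY replicate 3 was the highest of them. PSAD-1 (AT4G02770) had the smallest difference, -1.78 ± 0.65 (SE; adjusted p = 0.206), with 6.80, 9.02 and 6.91 in the SSY libraries, 8.43 and 8.35 in MG, 9.62 and 8.93 in FGF and 9.31 and 8.99 in E1728G, against 10.26 and 10.49 in ML1Y. FGF replicate 1 came within 1 log2 unit of ML1Y in PSAD-1. Its copy PSAD-2 (AT1G03130) had 5.19, 4.45 and 5.20 in the SSY libraries, 6.17 and 5.91 in MG, 7.84 and 6.84 in FGF and 6.86 and 7.15 in E1728G, against 9.42 and 10.33 in ML1Y, a difference of -3.54 ± 0.49 (SE; adjusted p = 0.000727).

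PSAE-1 (AT4G28750) had 4.83, 5.66 and 6.02 in the SSY libraries, 7.10 and 5.71 in MG, 7.57 and 7.17 in FGF and 8.84 and 7.85 in E1728G, against 11.06 and 11.27 in ML1Y, and fell by 4.26 ± 0.56 (SE; adjusted p = 0.000495). Values of PSAE-2 (AT2G20260) were 4.35, 4.23 and 4.72 in the SSY libraries, 5.11 and 4.3 in MG, 6.37 and 4.26 in FGF and 7.37 and 5.52 in E1728G, against 8.00 and 8.96 in ML1Y, a difference of -3.26 ± 0.58 (SE; adjusted p = 0.00393). Both had their lowest group mean in SSY, and E1728G replicate 1 was their highest lineage library. PSAH-1 (AT3G16140) had 5.74, 7.37 and 8.04 in the SSY libraries, 8.01 and 8.13 in MG, 7.11 and 7.79 in FGF and 8.73 and 7.76 in E1728G, against 9.80 and 11.06 in ML1Y, with a difference of -2.73 ± 0.65 (SE; adjusted p = 0.0298). PSAH-2 (AT1G52230) had 4.84, 9.03 and 4.99 in the SSY libraries, 5.21 and 4.93 in MG, 5.09 and 4.82 in FGF and 5.17 and 5.54 in E1728G, against 7.15 and 7.95 in ML1Y. SSY replicate 2 alone exceeded both ML1Y libraries in PSAH-2, and the difference, -2.13 ± 0.79 (SE; adjusted p = 0.222), missed the threshold.

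The other 5 photosystem I subunits lay below both ML1Y libraries in all 9 lineage libraries. PSAG ranged over 5.32 to 8.88 in the lineage against 11.38 and 11.76 in ML1Y, and PSAO over 6.14 to 8.43 against 11.90 and 11.94, with differences of -4.11 ± 0.53 and -4.23 ± 0.62. PSAF ranged over 5.99 to 10.38 against a mean of 11.20 in ML1Y, a difference of -3.23 ± 0.65. Those 3 genes fell. PSAN ranged over 7.57 to 10.87 against 11.29 and 11.79 and fell by 3.45 ± 0.76 in the mean of the stages, though it passed in no single stage. PSAL ranged over 7.64 to 10.17 against 11.06 and 11.65, and its difference, -2.52 ± 0.67 (SE; adjusted p = 0.0509), was just outside the threshold.

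In the oxygen-evolving complex, PSBO, PSBP and PSBQ are the lumenal proteins that shield the manganese cluster of photosystem II, and PSBR (AT1G79040) helps to attach them. PSBQ-1 (AT4G21280) had the largest difference, -5.32 ± 0.60 (SE; adjusted p = 0.000189), 39.8-fold, with 5.75, 6.67 and 7.49 in the SSY libraries, 7.19 and 5.94 in MG, 7.05 and 5.54 in FGF and 6.50 and 6.39 in E1728G, against 11.97 and 11.63 in ML1Y. Its copy PSBQ-2 (AT4G05180) had 7.51, 5.72 and 5.34 in the SSY libraries, 6.42 and 5.96 in MG, 7.15 and 5.69 in FGF and 7.97 and 7.52 in E1728G, against 10.25 and 10.08 in ML1Y, a difference of -3.53 ± 0.61 (SE; adjusted p = 0.0033). PSBQ-1 exceeded PSBQ-2 in ML1Y, whereas in the lineage either gene was the higher one depending on the library. PSBO1 (AT5G66570) had 8.26, 7.03 and 7.52 in the SSY libraries, 9.40 and 8.30 in MG, 10.44 and 10.00 in FGF and 8.19 and 9.72 in E1728G, against 12.78 and 12.98 in ML1Y, a difference of -3.97 ± 0.64 (SE; adjusted p = 0.00203). PSBO2 (AT3G50820) had 4.38, 5.26 and 6.18 in the SSY libraries, 5.57 and 5.09 in MG, 5.35 and 6.52 in FGF and 4.44 and 5.18 in E1728G, against 9.90 and 9.65 in ML1Y, a difference of -4.44 ± 0.51 (SE; adjusted p = 0.000201). PSBO2 was below PSBO1 in all 11 libraries.

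PSBP-1 (AT1G06680) was the exception in this group, with 8.39, 11.09 and 8.34 in the SSY libraries, 9.39 and 8.91 in MG, 9.04 and 10.38 in FGF and 9.04 and 8.94 in E1728G, against 10.80 and 11.39 in ML1Y. SSY replicate 2 lay between the ML1Y libraries, and the difference, -1.82 ± 0.75 (SE; adjusted p = 0.298), missed the threshold. PSBR ranged over 7.83 to 11.01 in the lineage against 13.21 and 15.06 in ML1Y, a difference of -4.52 ± 0.67 (SE; adjusted p = 0.00115).

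Of the other photosystem II genes, PSBS (AT1G44575) senses lumen acidity and switches on the release of excess light energy as heat, and PSBW (AT2G30570), PSBX (AT2G06520) and PSBY (AT1G67740) are small membrane proteins of the complex. PSBS (RefSeq symbol NPQ4) had the largest difference, -4.25 ± 0.65 (SE; adjusted p = 0.00151), with 7.46, 6.70 and 6.59 in the SSY libraries, 7.92 and 6.66 in MG, 8.44 and 8.31 in FGF and 8.80 and 6.47 in E1728G, against 11.47 and 12.14 in ML1Y. PSBX had the smallest, -2.08 ± 0.63 (SE; adjusted p = 0.102), with 7.08, 5.19 and 5.11 in the SSY libraries, 6.53 and 5.39 in MG, 6.77 and 8.69 in FGF and 6.85 and 6.19 in E1728G, against 8.57 and 8.59 in ML1Y. FGF replicate 2 lay above both ML1Y libraries in PSBX, and the test was not passed. PSBW ranged over 9.01 to 11.42 in the lineage against 13.67 and 13.91 in ML1Y and PSBY over 4.99 to 8.19 against 9.54 and 9.96, with differences of -3.34 ± 0.65 and -2.80 ± 0.59, and both fell.

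The 4 comparisons of single stages with ML1Y share the ML1Y libraries, so they are not independent of each other. In SSY 37 members fell, with a median difference of -4.67 (0.06 over all genes tested), against 4.75% of all genes tested that fell and 0.801% that rose. In MG 27 fell, with a median of -3.83 (0.03 over all genes), against 1.43% of all genes that fell and 0.188% that rose. In FGF 24 fell, with a median of -3.54 (0.04), against 1.89% that fell and 0.221% that rose. In E1728G 23 fell, with a median of -3.62 (0.03), against 2.09% that fell and 0.348% that rose. No member rose in any of them. The same 20 members fell in all 4 stages, against 0.945% of all genes: LHCA4, the 5 LHCB1 genes, the 3 LHCB2 genes, LHCB4.1, LHCB4.2, LHCB6, LHCA5, LHCA6, PSAG, PSAK, PSAO, PSBO2, PSBQ-1 and PSBS. A further 17 passed in 1 to 3 stages. The 6 that passed in none were LHCB4.3, LHCB7, PSAH-2, PSAL, PSAN and PSBP-1.

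These counts depended on single libraries. Here too the share of all genes that passed in each such fit is not given, so a general loss of calls cannot be told apart. Without ML1Y replicate 1 the counts were 26 in SSY, 11 in MG, 11 in FGF and 7 in E1728G. Without ML1Y replicate 2 they were 22 in SSY, 2 in MG, 3 in FGF and 4 in E1728G. In MG 6 members fell without MG replicate 2. In FGF 15 fell without FGF replicate 1 and 5 without FGF replicate 2. In E1728G 5 fell without E1728G replicate 1 and 11 without E1728G replicate 2. Across the leave-one-out fits the member medians stayed between -4.75 and -4.47 in SSY, -4.13 and -3.50 in MG, -3.67 and -3.09 in FGF, and -3.83 and -3.26 in E1728G. LHCB1.4 and LHCA5 passed in every leave-one-out fit of all 4 stages. ML1Y replicate 2 was above ML1Y replicate 1 for 38 of the 43 members, and the share over all genes was not computed.

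When stages were compared with each other, 2 members rose and none fell in E1728G against SSY, against 1.78% of all genes tested that rose and 0.358% that fell. LHCB2.1 rose by 2.88 ± 0.70 (SE; adjusted p = 0.0465), with 9.14 and 8.44 in E1728G against 5.51, 5.78 and 6.43 in SSY. PSAE-1 rose by 2.84 ± 0.65 (SE; adjusted p = 0.0377), with 8.84 and 7.85 in E1728G against 4.83, 5.66 and 6.02 in SSY. The groups did not overlap in either gene. Both calls were lost without any 1 of SSY replicates 1 and 2 and the FGF, E1728G and ML1Y libraries, that of LHCB2.1 also without SSY replicate 3, with adjusted p up to 0.322 for LHCB2.1 and 0.309 for PSAE-1. Just outside the threshold were PSAG (2.48 ± 0.61 (SE; adjusted p = 0.0513)), LHCA4 (2.76 ± 0.68 (SE; adjusted p = 0.0516)) and PSAF (3.01 ± 0.76 (SE; adjusted p = 0.0535)).

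The median member difference in E1728G against SSY was 1.18, and -0.09 over all genes tested, and 33 of the 43 members had a positive difference against 45.6% of all genes. With quantile normalization the medians were 0.71 for members and -0.09 for all genes. All E1728G libraries lay above all SSY libraries in 19 members, a pattern found in 15.7% of all genes, and below them in 1 member, PSAL, a pattern found in 15.8%. Before adjustment, 14 members were higher at p under 0.05, against 10.5% of all genes, and 1 was lower, against 5.55%. The lower member was LHCB7, with a difference of -2.19 ± 0.81 (SE; adjusted p = 0.186) and values of 5.48 and 4.41 in E1728G against 8.80, 7.45 and 5.15 in SSY.

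In MG against SSY no member passed the limma test, against 2.12% of all genes tested in either direction. Before adjustment 8 members were higher at p under 0.05, against 11.2% of all genes, and none lower, against 6.22%. The median member difference was 0.65, but 0.18 with quantile normalization and 0.32 without MG replicate 1. All MG libraries lay above all SSY libraries in 12 members (15.7% of all genes) and below them in none (15.5%). PSAG came nearest, with 2.44 ± 0.61 (SE; adjusted p = 0.0546). In FGF against MG no member passed (0.137% of all genes). Before adjustment 1 member was higher, PSBX, against 3.87% of all genes, and 1 was lower, LHCB7, against 4.49%. The groups did not overlap in 10 members higher in FGF (18.4% of all genes) and 7 lower (18.2%). In E1728G against FGF no member passed after adjustment, against 3 of all genes tested (0.0101%), and none passed before adjustment, against 3.54% of all genes. There the groups did not overlap in 12 members higher in E1728G (16.1%) and 5 lower (16.0%).

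TGG1 and FAMA, markers of later stages, were high in the SSY libraries that several of these comparisons use. TGG1, a guard cell myrosinase, stood at 18.64, 20.71 and 19.64 in the SSY libraries, 17.27 and 16.98 in MG, 19.98 and 20.72 in FGF and 20.85 and 20.44 in E1728G, against 16.98 and 16.71 in ML1Y. Its difference was 2.82 ± 0.49 (SE; adjusted p = 0.00372) in SSY against ML1Y and -2.54 ± 0.49 (SE; adjusted p = 0.0197) in MG against SSY. The call in MG against SSY was lost without either MG library and without the filter on low values (adjusted p = 0.178 without the filter). It was also lost with only those groups fitted, with quantile normalization and with the replicate number as a block. The 9 guard cell markers summed to 18.65 to 20.71 in SSY, 17.005 to 17.30 in MG, 19.99 to 20.73 in FGF and 20.44 to 20.85 in E1728G, against 16.74 to 17.003 in ML1Y. Nearly all of that sum was TGG1. SSY and ML1Y means of the other markers were 5.64 and 4.93 for KAT1, 8.01 and 6.97 for KAT2, and 7.80 and 6.63 for GORK. They were 7.79 and 7.15 for MYB60, 8.73 and 8.59 for SLAC1, and 9.29 and 8.18 for OST1. For HT1 they were 6.04 and 5.55, and for CYP86A2 7.24 and 9.70. FAMA stood at 12.39, 10.66 and 11.60 in the SSY libraries, 10.60 and 9.82 in MG, 14.03 and 14.90 in FGF and 11.50 and 10.98 in E1728G, against 8.88 and 8.30 in ML1Y, so the SSY and E1728G libraries overlapped. The part of these markers in the stage comparisons was not tested.

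In the F test over the 4 stages 1 member passed, PSAG (adjusted p = 0.0349), against 3.27% of all genes tested. PSAG stood at 5.73, 5.32 and 5.50 in SSY, 7.61 and 8.30 in MG, 8.88 and 7.90 in FGF and 7.96 and 8.02 in E1728G. SSY was low, and the other 3 stages overlapped. PSAG shares 58.8% of its annotated 50-base windows, compared on either strand, with a second annotated locus (AT1G55673). PSAG overlaps a gene annotated on the opposite strand, and no source used here states whether the libraries kept strand. Its value may therefore include reads of AT1G55673. The count of members passing the F test was 0 without any 1 of SSY replicates 1 and 2, MG replicate 2, FGF replicates 1 and 2, E1728G replicate 1 and ML1Y replicates 1 and 2.

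For 12 pairs of related members the log2 ratio within each library was compared between the 9 lineage libraries and the 2 ML1Y libraries by a two-sided exact permutation test, which has 55 splits and a smallest possible p of 0.0182. None of the 12 passed after Benjamini-Hochberg adjustment over the pairs (smallest adjusted p = 0.218). A single pair at the smallest possible p could not pass, and several pairs at or near it would have been needed. The absence of a pass therefore says little about the ratios. The test also treats the 9 lineage libraries of 4 marker lines as interchangeable. The lineage and ML1Y did not overlap in 2 pairs. LHCA1 over LHCA4 was 3.06, 2.65 and 1.45 in the SSY libraries, 0.58 and 1.84 in MG, 0.72 and 0.19 in FGF and 1.1 and -0.30 in E1728G, against -2.54 and -1.99 in ML1Y. LHCA1 was thus the higher of the pair in 8 of 9 lineage libraries and LHCA4 in both ML1Y libraries, and the mean ratio differed by 3.52 (exact permutation p = 0.0182, the smallest possible, adjusted p = 0.218). PSAD-2 over PSAD-1 was -1.61, -4.57 and -1.71 in the SSY libraries, -2.26 and -2.43 in MG, -1.78 and -2.09 in FGF and -2.45 and -1.83 in E1728G, against -0.85 and -0.16 in ML1Y. PSAD-1 was the higher in all libraries, by more in the lineage, with a difference of -1.80 (exact permutation p = 0.0545, adjusted p = 0.218).

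The other 10 ratios overlapped. LHCB4.3 over LHCB4.1 was -6.80 to -2.44 in the lineage and -6.09 and -8.75 in ML1Y (exact permutation p = 0.0364, adjusted p = 0.218). PSBQ-2 over PSBQ-1 was -2.15 to 1.77 in the lineage and -1.72 and -1.55 in ML1Y. PSAE-2 over PSAE-1 was -2.91 to -0.48 in the lineage and -3.06 and -2.30 in ML1Y. The summed LHCB2 over the summed LHCB1 was -6.08 to -1.62 in the lineage and -3.71 and -3.63 in ML1Y, with a lineage median of -3.48. The remaining 6 were LHCA2 over LHCA3, LHCA6 over LHCA2, LHCA5 over LHCA4, LHCB4.2 over LHCB4.1, PSAH-2 over PSAH-1 and PSBO2 over PSBO1, with exact permutation p from 0.182 to 0.909.

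**Figure D4:**
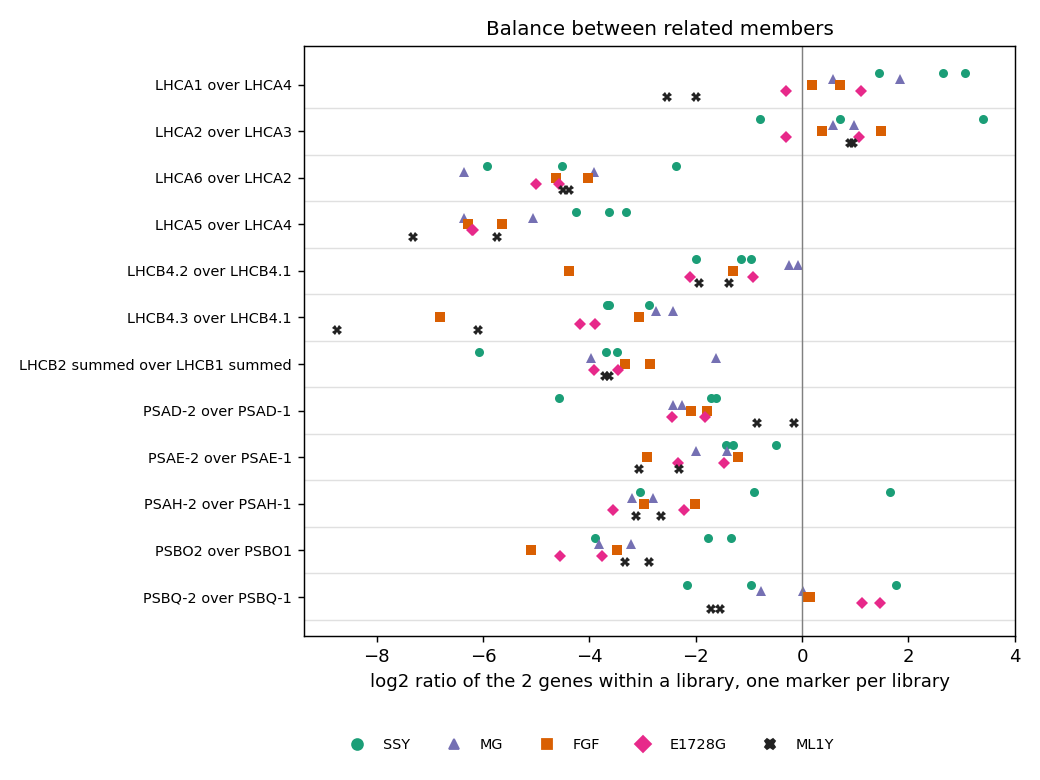
The log2 ratio of the 2 genes of each of 12 pairs in each library, with 1 marker per library and 1 colour per marker line. The ML1Y markers lie outside the lineage range for LHCA1 over LHCA4 (to the left) and PSAD-2 over PSAD-1 (to the right).

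Levels per transcript length, from the group mean on the log2 scale and the longest annotated transcript, gave a different order of members in the lineage and in ML1Y. LHCA1 ranked 1 in SSY, MG and FGF, 2 in E1728G and 8 in ML1Y. LHCA4 ranked 14 in SSY, 5 in MG, 4 in FGF, 4 in E1728G and 2 in ML1Y. LHCB1.3 ranked 3 in SSY, MG and FGF, and 1 in both E1728G and ML1Y. In log2 units per kilobase, LHCA1 stood at 10.51 in SSY, 11.54 in MG, 10.97 in FGF, 11.28 in E1728G and 13.54 in ML1Y, while LHCB1.3 stood at 10.31, 10.51, 10.62, 12.13 and 16.07 in the same order. In SSY, LHCA1 and LHCB1.3 differed by less than the SD of LHCA1 over its libraries (0.96).

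The motif CCAATC on either strand occurred in the 250 bases before the gene start of 11 of the 43 members (25.6%), against 10.2% of the promoters of 27443 protein-coding genes. It was held by 10 of the 17 antenna genes without the rare ones (58.8%), by none of the 12 photosystem I subunits and by 1 of the 22 subunits (4.5%), PSBQ-2. CACGTG occurred in 20.9% of members against 6.5% of all promoters, GATAAG in 20.9% against 12.3%, and TATAAA in 44.2% against 47.3%. In the members' windows 3 pairs of matches overlapped each other. These are letter matches and were not tested as binding sites. The LHCB1.1, LHCB1.2 and LHCB1.3 genes lie next to each other on chromosome 1, and LHCB1.4 and LHCB1.5 as well as LHCB2.1 and LHCB2.2 do so on chromosome 2.

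In transcript sequence compared on either strand, 24 members shared no 50-base window with another annotated gene and 9 shared more than 20% of their windows. An overlap with a gene annotated on the opposite strand therefore counts as shared. These 9 were PSAG (58.8%), PSAH-1 (49.2%), LHCB2.3 (38.6%), PSAE-1 (29.1%), LHCB2.2 (28.2%), LHCB2.1 (22.7%) and LHCB1.5, LHCB1.3 and LHCB1.1 (20.5% to 22.3%), and their values may include reads of other genes. Of these, PSAG, PSAH-1, LHCB2.3, PSAE-1, LHCB1.5 and LHCB1.3 overlap a gene on the opposite strand. LHCB2.1, LHCB2.2 and LHCB1.1 do not, and share windows with copies of their own family. LHCB1.3 and LHCB1.5 share windows with family copies as well. In 16 members a gene annotated on the opposite strand overlaps, and no source used here states whether the libraries kept strand.

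In the rest of the photosynthetic apparatus, of 13 chlorophyll synthesis genes 7 fell in the mean of the stages against ML1Y and none rose, among them CHLG, the enzyme that adds the phytol tail (-4.0 ± 0.42 (SE; adjusted p = 0.000117)), CHLI1, a subunit of magnesium chelatase (-3.92 ± 0.56 (SE; adjusted p = 0.000883)), DVR, which reduces a vinyl group of the pigment (-2.77 ± 0.43 (SE; adjusted p = 0.00161)), and PORB, a protochlorophyllide reductase (-2.87 ± 0.56 (SE; adjusted p = 0.00818)). Of 10 nuclear genes for electron carriers and the chloroplast ATP synthase 8 fell, among them the ATP synthase subunit ATPG (-4.58 ± 0.51 (SE; adjusted p = 0.000182)), PETC, the Rieske iron-sulfur protein (-4.91 ± 0.61 (SE; adjusted p = 0.000325)), PETE1, a plastocyanin (-3.64 ± 0.50 (SE; adjusted p = 0.000717)), and LFNR2, a ferredoxin-NADP reductase (-3.77 ± 0.57 (SE; adjusted p = 0.00131)). Of 6 other nuclear photosystem proteins 4 fell, namely CURT1B, which bends the thylakoid edge (-4.14 ± 0.64 (SE; adjusted p = 0.00152)), the assembly factors PSB28 (-2.67 ± 0.44 (SE; adjusted p = 0.00246)) and PSB27 (-2.51 ± 0.64 (SE; adjusted p = 0.0424)), and the small subunit PSBTN (-3.43 ± 0.65 (SE; adjusted p = 0.00649)). Without 1 library, CHLI1, CHLG, PETC and ATPG passed each time, and the other calls of these 3 lists were lost in at least 1 fit.

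Of 6 genes for import, insertion and assembly of antenna proteins 4 fell. They were cpSRP54 (-3.46 ± 0.58 (SE; adjusted p = 0.0029)) and cpSRP43 (-2.44 ± 0.43 (SE; adjusted p = 0.0037)), which carry antenna proteins to the thylakoid, and OHP2 (-3.13 ± 0.45 (SE; adjusted p = 0.000875)) and OHP1 (-2.32 ± 0.61 (SE; adjusted p = 0.0492)), small antenna relatives that assist photosystem assembly. Of 4 kinases and phosphatases that act on antenna and core proteins 3 fell, the core phosphatase PBCP (-2.89 ± 0.50 (SE; adjusted p = 0.00366)), the core kinase STN8 (-2.34 ± 0.56 (SE; adjusted p = 0.0281)) and the antenna phosphatase TAP38 (-2.29 ± 0.58 (SE; adjusted p = 0.0411)). STN7, the kinase of state transitions, differed by -1.68 ± 0.52 (SE; adjusted p = 0.112), and it rose in E1728G against SSY by 2.86 ± 0.61 (SE; adjusted p = 0.0273). That call was lost without SSY replicate 2, either E1728G library or either ML1Y library. It was also lost with only those groups fitted and with the replicate number as a block. In these 2 lists OHP2 alone passed in every leave-one-out fit. No gene passed of 3 light-stress antenna relatives or of 5 chlorophyll breakdown genes, with list medians of -0.53 and -0.03.

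None of 4 regulators passed in the mean of the stages. HY5, a light-signalling factor, stood at 8.51 and 10.69 in MG against 5.47, 5.83 and 5.96 in SSY, with a difference of 3.85 ± 0.75 (SE; adjusted p = 0.0208), and it passed the F test over the stages (adjusted p = 0.0431). Its call in MG against SSY was lost without SSY replicate 2, MG replicate 2 or either ML1Y library, and with only those groups fitted. GLK1 and GLK2, the paired factors that activate antenna and chlorophyll genes, differed in the mean of the stages by -0.08 ± 0.73 (SE; adjusted p = 0.977) and -0.29 ± 0.63 (SE; adjusted p = 0.91). GLK1 values were 5.95, 5.68 and 6.64 in the SSY libraries, 6.56 and 5.53 in MG, 6.01 and 5.87 in FGF and 10.39 and 6.49 in E1728G, against 6.75 and 6.67 in ML1Y. E1728G replicate 1 stood apart from the other libraries, and the sign of the difference changed with quantile normalization to 0.092. GLK2 values were 5.75, 7.13 and 8.25 in the SSY libraries, 7.99 and 7.72 in MG, 9.75 and 9.14 in FGF and 8.36 and 8.87 in E1728G, against 8.60 and 8.46 in ML1Y, with SSY replicate 1 lowest and both FGF libraries highest. Both members of the pair thus overlapped between the lineage and ML1Y. Of 8 loci with chloroplast-genome codes that were listed for comparison, 3 fell (psbB, psbC and psbD), with a list median of -2.28. All 3 calls were lost without either ML1Y library, and that of psbB also without MG replicate 2 or either FGF library. The libraries were made after capture on oligo-dT beads, a step that selects transcripts with poly(A) tails.

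**Figure D5:**
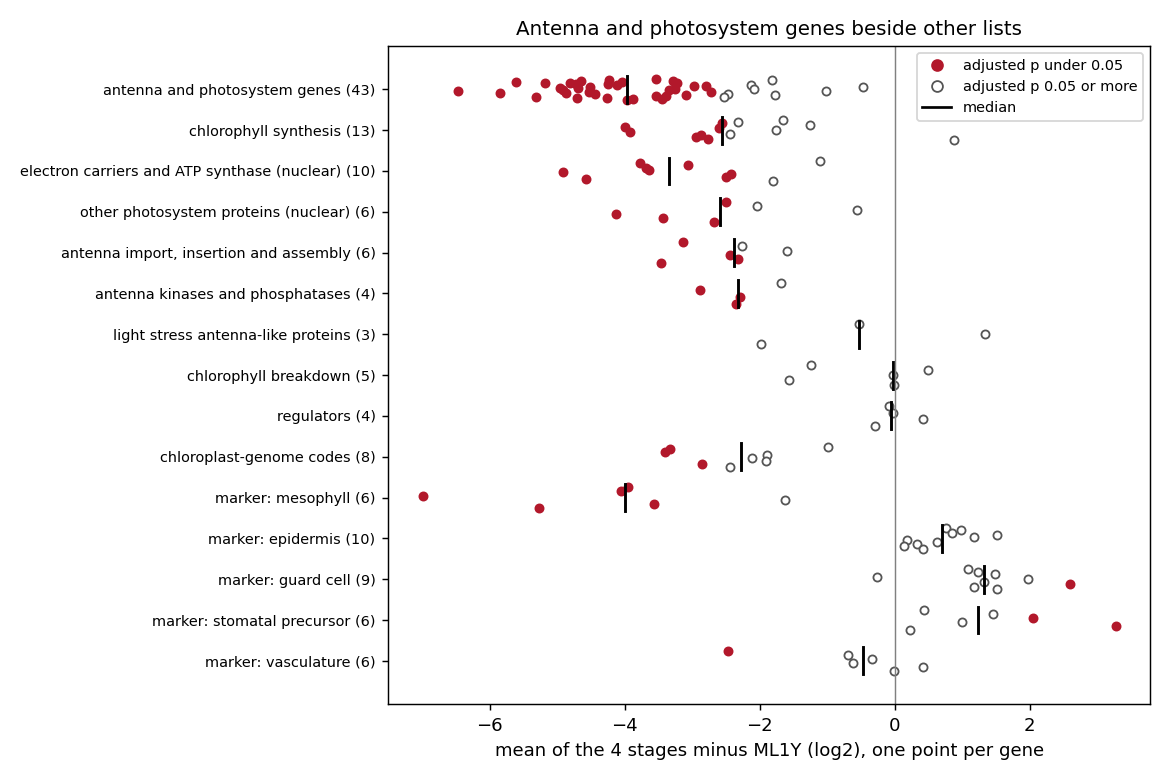
Difference between the mean of the 4 stages and ML1Y (log2) for each gene of the 43 members and of the comparison lists, with 1 point per gene and list sizes in brackets. Filled points passed the test, and black bars are medians. The medians of the members, of the electron carrier list and of the mesophyll markers lie below -3. Those of the regulator and chlorophyll breakdown lists lie near 0. LHCB7 is the member closest to 0.

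Of 6 mesophyll markers 5 fell in the mean of the stages, including GOX1, a photorespiration enzyme (-6.99 ± 0.60 (SE; adjusted p = 6.55e-05)), and RBCS2B, a Rubisco small subunit (-5.27 ± 0.63 (SE; adjusted p = 0.000284)), and the other, IQD22, did not pass (-1.63 ± 0.67 (SE; adjusted p = 0.304)). The calls of GOX1 and RBCS2B held in every leave-one-out fit, and those of the other 3 were lost without either ML1Y library. The summed log2 level of the 6 markers was 12.58 to 14.65 in SSY, 12.87 to 13.46 in MG, 13.04 to 13.38 in FGF and 13.27 to 13.41 in E1728G, against 17.24 to 17.53 in ML1Y. The 43 members summed to 13.84 to 14.61 in SSY, 14.40 to 14.62 in MG, 14.38 to 14.66 in FGF and 14.63 to 15.19 in E1728G, against 18.31 to 18.89 in ML1Y. The mesophyll markers thus moved with the members, none of them was at 0 in any library, and their part in the result was not tested. Several of these markers are themselves genes of photosynthetic carbon metabolism.

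Of 10 epidermis markers none passed in the mean of the stages (median difference 0.70). Their summed level was 12.32 to 13.74 in SSY, 13.22 to 14.83 in MG and 13.003 to 13.45 in FGF. It was 13.43 to 13.46 in E1728G, against 12.09 to 12.17 in ML1Y. All lineage libraries thus lay above both ML1Y libraries in the summed epidermis markers and below both in the summed mesophyll markers. The epidermis sum is weighted to its highest genes, such as CER6 (mean 12.75 in E1728G, 10.33 in ML1Y), and single markers went both ways. In E1728G the means of ATML1 (7.795), PDF2 (7.87), PDF1 (6.55) and LTP1 (6.26) lay below those in ML1Y (8.47, 8.36, 8.07 and 6.97). Those of FDH, CER6, CER5, DCR, BDG and LACS2 lay above. The part of these marker patterns in the differences of the members was not tested. Of 9 guard cell markers TGG1 alone rose, a myrosinase, and of 6 stomatal precursor markers FAMA and EPF1 rose. Of 6 vasculature markers XCP2 alone fell. Each of these 4 calls was lost without at least 1 of the ML1Y libraries. The spread between replicates of the members, as the root mean square SD, was 1.00 in SSY, 0.778 in MG, 0.731 in FGF and 0.664 in E1728G, against 0.504 in ML1Y. Over all genes tested it was 0.908 in SSY, 0.744 in MG, 0.608 in FGF and 0.6675 in E1728G, against 0.4565 in ML1Y.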

How the data were processed

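Expression was measured by RNA sequencing in 11 libraries of 5 marker lines. Bowtie2, DESeq2 and the TAIR10 build are named in the submitters' processing notes, without versions. The deposited log2 values are the authors' normalized expression per gene on a log scale. The counting step, the exact transformation and the log base are not stated in any source used here. A base of 2 was inferred from the values, and fold changes rest on it. The table holds 33602 genes, 2 of which have no value. Library columns were matched by the short names in the labels, which call the data microarray-based in the description although the series holds sequencing.

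Genes with a value of at least 3.32 in at least 2 libraries (29850) were fitted with limma 3.58.1 in R 4.3.3, with a mean trend, over all 11 libraries in 1 fit, and p-values were adjusted over all genes tested by the Benjamini-Hochberg method with a threshold of 0.05. The fitting code was tested on simulated data. Read depth is unknown, so precision rests on the spread between 2 or 3 libraries per group. Promoters, gene positions, transcript lengths and coding sequences were read from the RefSeq TAIR10.1 sequence and annotation, in which all 43 members were found by locus code, in place of a promoter table. The deposited table has no coordinates.

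The members and lists were chosen with earlier results of these data known. Values per library are printed for the members with the largest and smallest difference in each role, for both members of each pair and for the rare antenna genes, and from each other list for GLK1, GLK2 and up to 4 genes with the smallest adjusted p. HY5, STN7 and the cell type markers named singly were chosen after their values were seen. Alternatives were another filter or none, 1 added on the linear scale, quantile normalization, only the groups compared, the replicate number as a block, no mean trend, summed families and each library left out. Leaving out the 3 SSY libraries was planned for the pair ratios and added for the other tests after the values were seen.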

Additional observations from a re-analysis of the deposited data

How the results depend on the processing

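Every count of members lower than in ML1Y stayed within 1.5 times of the value given, with no member higher, under the other filters, the added constant, quantile normalization, no mean trend, the replicate block and the summed families, and 37 were lower in FGF against ML1Y when only those groups were fitted. Leaving out 1 library moved the counts over 22 to 37 in SSY against ML1Y, 2 to 29 in MG, 3 to 27 in FGF, 4 to 27 in E1728G and 15 to 37 in the mean of the stages. In E1728G against SSY the count was 5 without a filter, 6 with the filter at 50, 1 with quantile normalization, 0 when only those groups were fitted, 8 without the mean trend, 1 with the families summed, and 0 to 2 with 1 library left out. In MG against SSY it was 1 without a filter, 1 with the filter at 50 and 2 without the mean trend. In the F test it was 2 with the filter at 50, 0 with quantile normalization, 0 when only those groups were fitted, 5 without the mean trend, and 0 to 1 with 1 library left out. The counts in MG against SSY, FGF against MG and E1728G against FGF were 0 in every leave-one-out fit. A group left with 1 library is assumed to vary like the others. Shares of all genes that passed under these settings are not given here. The cause of these changes was not tested.

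The shared replicate numbers gave no sign of pairing. None of 20 same-number pairs had a correlation of deviations over 0.1 (-0.08 to 0.03), and 6 of 11 libraries correlated best with their own number. In a group of 2 libraries the deviations mirror each other, so pairs between such groups repeat the same value. These are therefore not 20 separate checks, and the count of best matches is bound by the same mirroring. With the replicate block, to which SSY replicate 3 adds nothing because no other library has its number, the counts lower than in ML1Y were 33 in SSY, 27 in MG, 26 in FGF, 25 in E1728G and 35 in the mean, in E1728G against SSY 1 member (LHCB7) was lower, and the F test gave 0.

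Signs changed in differences that did not pass the test. With 1 library left out, LHCB7 ran from -0.038 to 1.78 in SSY against ML1Y and from -0.23 to 0.89 in MG, LHCB4.3 from -0.77 to 0.52 in MG and from -2.17 to 0.044 in FGF, PSBX from -1.81 to 0.11 in FGF, and GLK1 from -0.57 to 0.40 in the mean of the stages. The ratios ran from -0.41 to 0.11 for LHCA2 over LHCA3, -0.43 to 0.066 for LHCA6 over LHCA2, -0.090 to 0.56 for LHCB4.2 over LHCB4.1, and -0.17 to 0.38 for the summed LHCB2 over LHCB1. With quantile normalization GLK1 was 0.092, LHCA6 over LHCA2 0.18 and LHCB2 over LHCB1 -0.034. Without the 3 SSY libraries GLK1 was 0.096 and GLK2 0.11.

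Of the remaining single-gene and ratio values, 5100 recomputed values kept their side of the threshold, 160 moved inside it and 579 outside it.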
